A study of Mus musculus with 9 samples.

Results

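The 3 genes described here are Wwtr1 and Camta1, the partners of the TAZ-CAMTA1 gene fusion, and Nf2, the tumour suppressor gene that encodes merlin and acts upstream in the Hippo pathway. They were chosen by name, as the fusion genes of this tumour and its upstream Hippo suppressor, with earlier results of these data known. They come from the 251 genes of the authors' deposited dinaciclib table, and 720 genes are listed in the study's tables altogether. RNA sequencing was done on EHE17 cells, a mouse tumour line labelled endothelial, with the genotype TC+/+ Cdkn2a -/- in every group. The tested cells received dinaciclib at 300 nM for 16 h and the controls received DMSO vehicle, with 3 biological replicates in each group. A further group of 3 received MGH-CP1 at 10 µM for 16 h, and none of the 3 genes is in the authors' deposited table for that compound, so their levels with MGH-CP1 were not analysed here. The labels do not spell out TC, taken here to stand for the TAZ-CAMTA1 allele; nor do they say how the allele was built, whether the line is a single clone, or how long vehicle was applied. Dinaciclib is an inhibitor of several cyclin-dependent kinases, including CDK9, whose activity lets RNA polymerase II leave the promoter-proximal pause.

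Wwtr1 encodes TAZ, a transcriptional coactivator that has no DNA-binding domain of its own and reaches genes through TEAD proteins. In the Hippo pathway, merlin, the product of Nf2, helps to activate the LATS kinases at the cell membrane, and LATS phosphorylation holds TAZ and its relative YAP in the cytoplasm. Camta1 encodes a calmodulin-binding transcription activator, and the authors' deposited table places it in the CG-1 family. In epithelioid hemangioendothelioma, a vascular tumour, the fusion joins the TEAD-binding amino-terminal part of TAZ to the carboxy-terminal part of CAMTA1, and the product stays largely nuclear. Loss of NF2 is best known in human schwannoma and meningioma.

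All 3 genes are protein-coding and lie on the minus strand. Wwtr1 (ENSMUSG00000027803) lies on chromosome 3, from 57455649 to 57575910, Camta1 (ENSMUSG00000014592) on chromosome 4, from 150917322 to 151861876, and Nf2 (ENSMUSG00000009073) on chromosome 11, from 4765845 to 4849536. These deposited positions equal those of GENCODE M21 (GRCm38) for the 3 genes, and the deposited gene lengths equal the union of annotated exons, which is 4779 bases for Wwtr1, 14570 for Camta1 and 6825 for Nf2. Camta1 has the longest genomic span of the 251 listed genes, at 944555 bases; Wwtr1, at 120262 bases, ranks 33 and Nf2, at 83692 bases, ranks 60, against a median span of 40934 bases. Within the Camta1 span lie or reach 7 other annotated genes, within that of Wwtr1 1 and within that of Nf2 0, and none shares exon bases with the member. A fusion transcript holds sequence of both partner genes. As the labels do not say how the allele was built, how far its reads were counted under Wwtr1 or Camta1 is not known. Gene counts do not separate such reads from those of the native transcripts.

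The promoter windows of the 3 genes are shown because a fusion transcript that starts in Wwtr1 would be read from the Wwtr1 promoter. Native Camta1 is read from its own. Whether the fusion of this line starts at the Wwtr1 promoter is not given in the labels. Each window is the 250 bases before the RefSeq gene start (GRCm38.p6), read 5′ to 3′ on the minus strand; they are chr3:57575911-57576160 for Wwtr1, chr4:151861769-151862018 for Camta1 and chr11:4849545-4849794 for Nf2. Capitals mark the TEAD motif GGAATG, the GC box GGGCGG and the CCAAT box CCAAT, searched on both strands, none of which overlap here.
Wwtr1: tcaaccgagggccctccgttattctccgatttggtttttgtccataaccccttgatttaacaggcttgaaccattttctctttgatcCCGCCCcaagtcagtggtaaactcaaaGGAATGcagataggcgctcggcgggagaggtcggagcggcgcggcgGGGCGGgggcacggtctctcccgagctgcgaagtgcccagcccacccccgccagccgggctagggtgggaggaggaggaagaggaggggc
Camta1: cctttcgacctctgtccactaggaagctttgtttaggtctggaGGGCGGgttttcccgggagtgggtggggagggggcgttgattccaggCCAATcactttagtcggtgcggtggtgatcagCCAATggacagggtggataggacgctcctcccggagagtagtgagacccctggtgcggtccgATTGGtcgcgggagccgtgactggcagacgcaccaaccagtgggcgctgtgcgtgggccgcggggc
Nf2: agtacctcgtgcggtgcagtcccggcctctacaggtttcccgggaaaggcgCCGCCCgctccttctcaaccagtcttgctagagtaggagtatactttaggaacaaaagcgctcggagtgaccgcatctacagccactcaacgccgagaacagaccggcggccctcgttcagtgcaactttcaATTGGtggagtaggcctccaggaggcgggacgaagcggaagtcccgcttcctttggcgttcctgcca
The Wwtr1 window holds 1 TEAD motif, whose first base is 136 bases before the start, and the windows of Camta1 and Nf2 hold 0. Of 32851 windows of this length over all mouse genes in the RefSeq table, 12.6% hold that motif. The Wwtr1 window has 2 GC boxes and 0 CCAAT boxes, that of Camta1 has 1 GC box and 3 CCAAT boxes, and that of Nf2 has 1 of each, against 32.7% and 33.8% of all windows that hold at least 1. Of the 271 windows of listed genes, 66.4% hold a GC box, 37.3% a CCAAT box and 13.3% the TEAD motif. A second Wwtr1 window, shifted by an alternative start, holds the same motifs, and a second Nf2 window, within the gene, holds none of them. The Camta1 window lies partly within the annotated gene, from 151861769 to 151861876, and so does part of the second Wwtr1 window.

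Dinaciclib libraries held 2541162 to 3316779 counted reads and vehicle libraries 31852117 to 40020833, a 12.2-fold difference in mean total in favour of vehicle. Levels are therefore shares of what remained in a library, and less RNA of all genes together cannot be told apart from fewer cells or a smaller library. The table lists only genes with a deposited adjusted p below 0.05, a log2 fold change of 1 or more in size and an entry for a tumour type; it was made on these same libraries, so a call below is no independent evidence of a change. Of 21 endothelial markers looked for, 4 are in the table, and Kdr, Fli1, Notch1 and Gata2 had 1515 to 31430 raw counts in the vehicle libraries. The other markers, and those of macrophages, fibroblasts, mural cells and epithelium, are not in it, which does not show that they were silent. The authors' MGH-CP1 table holds 2 of the 8 macrophage markers and 1 of the 21 endothelial ones.

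Wwtr1 and Camta1 were lower and Nf2 was higher with dinaciclib relative to the rest of the library. In counts divided by the authors' size factors, called normalised counts here, Wwtr1 was 3.49-fold lower, Camta1 5.62-fold lower and Nf2 10.4-fold higher. The raw counts of Nf2 overlapped between the groups, although the dinaciclib libraries were so much shallower.

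Wwtr1, the gene of TAZ, had 34, 52 and 40 raw counts in the dinaciclib libraries, against 1415, 1514 and 1931 in the vehicle libraries. Every dinaciclib library was below every vehicle library, as was so for the raw counts of 228 of the 251 listed genes (90.8%). The dinaciclib values of Wwtr1 rest on few reads. In normalised counts these were 126, 148 and 131 with dinaciclib, against 460, 457 and 498 with vehicle, or 135 ± 11.8 against 471 ± 22.7 (SD, n = 3 each). Scaling thus brought the groups closer together, and replicate 2 of dinaciclib was the highest of its group on both scales. The log2 change was −1.80 (SE 0.184), and edgeR's quasi-likelihood fit over the whole table gave a Benjamini-Hochberg adjusted p of 2.04e-05. This value depends on the library scale: with TMM factors over the listed genes it was −0.19 (adjusted p = 0.411, same edgeR test), and with DESeq2's size factors over those genes −0.14 (adjusted p = 0.554), since both take most of the listed genes as unchanged.

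Camta1 had 97, 188 and 142 raw counts with dinaciclib, against 7920, 8372 and 9892 with vehicle. In normalised counts these were 359, 536 and 465 with dinaciclib, against 2573, 2528 and 2549 with vehicle. The vehicle libraries lay close together, with a coefficient of variation of 0.885%, while the dinaciclib libraries varied by 19.7%, replicate 1 being the lowest and replicate 2 the highest. The means were 453 ± 89.4 with dinaciclib and 2550 ± 22.6 with vehicle (SD, n = 3 each). The log2 change was −2.48 (SE 0.139), with a Benjamini-Hochberg adjusted p of 4.44e-07 from the same edgeR fit. With TMM factors it was −0.87, still past the threshold (adjusted p = 0.000516 by the same edgeR test).

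Nf2, the gene of merlin, had 3196, 3222 and 3758 raw counts with dinaciclib, against 3322, 3486 and 4179 with vehicle. These ranges overlapped, and an exact two-sided permutation test of the log2 raw counts gave p = 0.5. As raw counts also carry the difference in library totals, this test does not show that the Nf2 level was unchanged. Overlapping raw counts were found for 12 of the 251 listed genes, or 4.78%, while 11 genes (4.38%) had higher raw counts in every dinaciclib library and 228 (90.8%) lower. In normalised counts Nf2 stood at 11820, 9193 and 12310 with dinaciclib, against 1079, 1052 and 1077 with vehicle, so the groups were far apart. Replicate 2 of dinaciclib was the lowest of its group here, the opposite of its place for Wwtr1 and Camta1; that library had the highest total of the 3 and the lowest share of its reads on listed genes, 9.61%, and the part of this in the result was not tested. The means were 11108 ± 1676 with dinaciclib and 1069 ± 14.8 with vehicle (SD, n = 3 each). The log2 change was 3.38 (SE 0.122), with a Benjamini-Hochberg adjusted p of 5.28e-08 from the same edgeR fit. It was 5.01 with TMM factors and 5.07 with DESeq2's size factors over the listed genes.

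**Figure D1:**
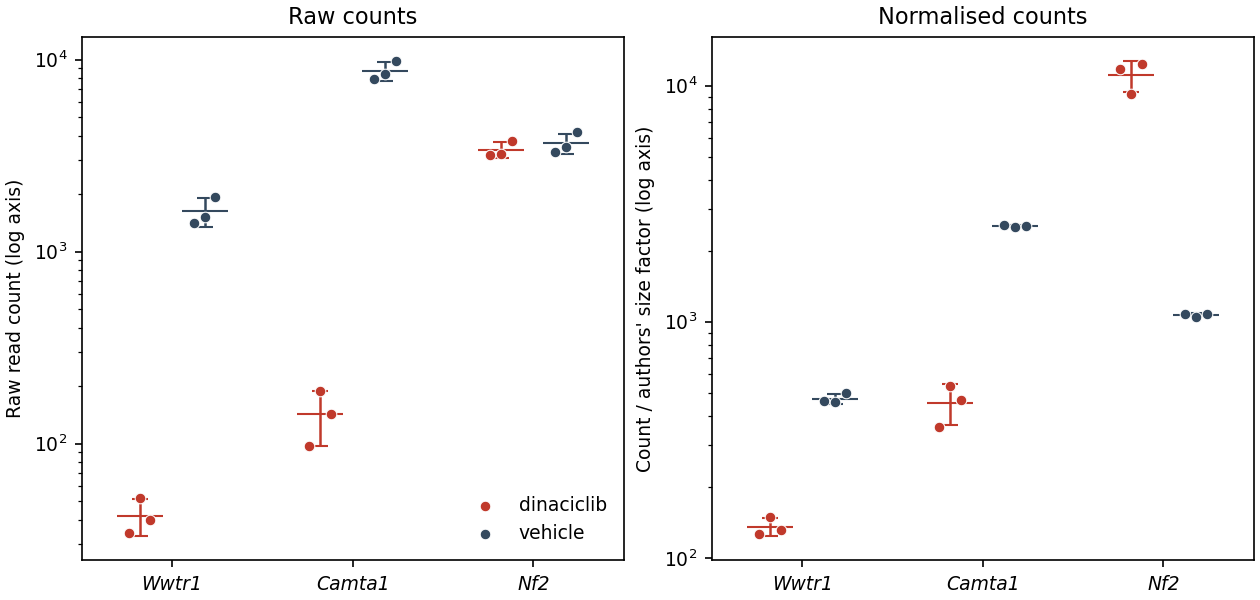
Raw counts (left) and counts divided by the authors' size factors (right) of Wwtr1, Camta1 and Nf2, on log axes, with dinaciclib in red to the left of vehicle in dark blue. Points are the 3 libraries of each group, bars the mean ± SD; the raw counts of Nf2 overlap between the groups, while its normalised counts are 9193 to 12310 with dinaciclib and 1052 to 1079 with vehicle.

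All 3 genes passed, as did 100% of the 248 tested genes of the table: 25% were called higher and 75% lower, so that the calls say nothing particular about these genes. The split was 62 higher and 186 lower with the authors' size factors, and 70 higher and 96 lower with TMM factors. For each gene the normalised counts of the groups did not overlap, which also held for 24.3% of listed genes with dinaciclib higher and 74.1% with dinaciclib lower. The exact two-sided permutation test over libraries gave p = 0.1 for each gene, the smallest value that 3 against 3 allows. Among the 186 genes called lower, whose median log2 change was −2.39, Camta1 had 82 steeper falls than its own and Wwtr1 127. Nf2 ranked 18 from the top of the 248, and the median of the 62 genes called higher was 2.22. The authors' deposited table gives log2 fold changes of −1.80 for Wwtr1, −2.48 for Camta1 and 3.38 for Nf2.

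**Figure D2:**
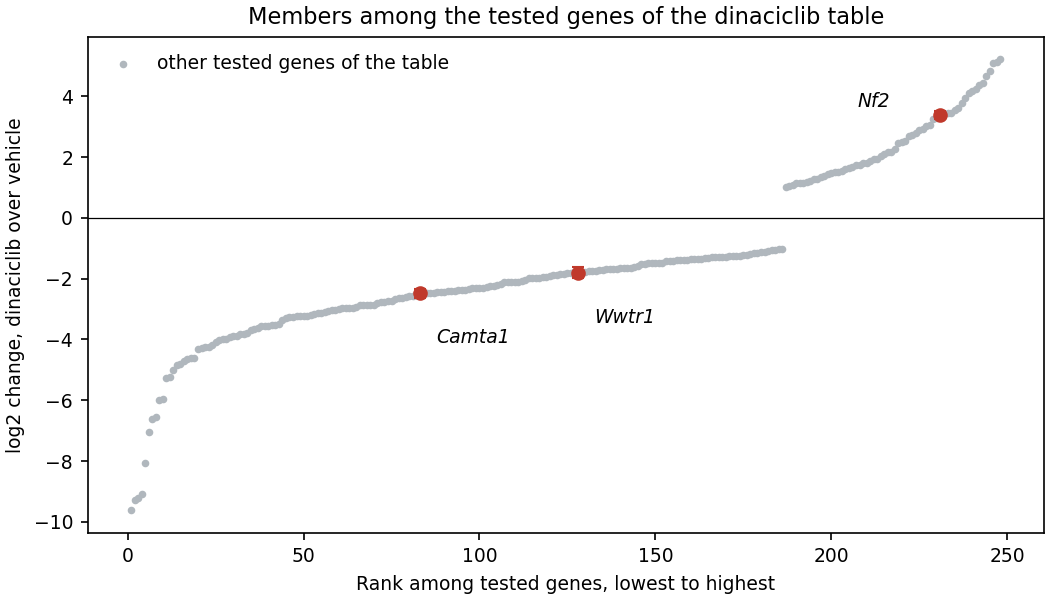
Log2 change, dinaciclib over vehicle, of the 248 tested genes in rank order (grey), with Wwtr1, Camta1 and Nf2 in red and their standard errors as bars. Wwtr1 at −1.80 and Camta1 at −2.48 lie among the lower genes, Wwtr1 above and Camta1 just below their median of −2.39, and Nf2 at 3.38 lies above the median of the higher ones; the gap around 0 comes from the authors' choice of genes.

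Ratios between genes counted in the same library do not depend on any library scale, and 3 such ratios were compared. The count of Camta1 was 2.85, 3.62 and 3.55 times that of Wwtr1 in the dinaciclib libraries, against 5.60, 5.53 and 5.12 times in the vehicle libraries. The ratio was lower in every dinaciclib library than in every vehicle library, at 3.34 ± 0.423 with dinaciclib and 5.42 ± 0.257 with vehicle (SD, n = 3 each). On the log2 scale the difference was −0.72, or a 1.64-fold lower ratio with dinaciclib. With dinaciclib the 95% exact binomial (Clopper-Pearson) intervals of the single libraries ran from 1.91 to 5.18, which reaches the vehicle ratios of 5.12 in replicate 3, so counting error alone is wide here. These intervals cover counting error only.

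The count of Nf2 was 94.0, 62.0 and 94.0 times that of Wwtr1 with dinaciclib, against 2.35, 2.30 and 2.16 times with vehicle. The 3 dinaciclib libraries stood far above the vehicle libraries, with a difference of 5.15 on the log2 scale. Nf2 counts were 32.9, 17.1 and 26.5 times those of Camta1 with dinaciclib, against 0.419, 0.416 and 0.422 times with vehicle. Vehicle libraries thus held more Camta1 than Nf2 reads and dinaciclib libraries the reverse, a difference of 5.87 on the log2 scale. Each of the 3 ratios gave p = 0.1 by an exact two-sided permutation test over libraries, the smallest that 3 against 3 allows. It was 0.1 after Benjamini-Hochberg adjustment over the 3. The authors' choice of genes, made on these same libraries, kept Nf2 as higher and Wwtr1 and Camta1 as lower. A rise of both Nf2 ratios followed from that choice, so their tests are no independent evidence of a change.

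**Figure D3:**
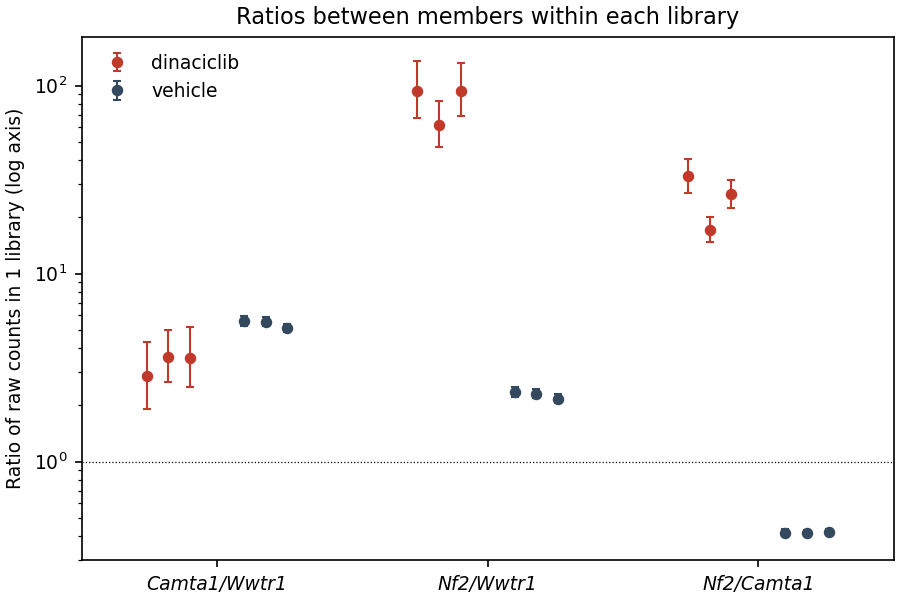
Ratio of raw counts of a pair of genes within each library, on a log axis, with dinaciclib in red to the left of vehicle in dark blue. Points are libraries and bars 95% exact binomial intervals. Camta1/Wwtr1 is 2.85 to 3.62 with dinaciclib and 5.12 to 5.60 with vehicle. Both Nf2 ratios are higher in every dinaciclib library, a direction that followed from the authors' choice of genes.

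Levels of different genes can be set side by side per length, as FPKM. In vehicle cells the order was Camta1, Nf2 and Wwtr1, at 16.95 ± 0.121, 15.2 ± 0.194 and 9.56 ± 0.468 FPKM (SD, n = 3), and no neighbouring pair overlapped. In dinaciclib cells Nf2 came first, at 184, 142 and 192 FPKM in the 3 libraries. Camta1 followed at 2.62, 3.89 and 3.41 FPKM, and Wwtr1 at 2.80, 3.28 and 2.93 FPKM. Those 2 ranges overlapped, Camta1 being the higher in 2 of 3 libraries, so that their order did not exceed the spread. As any reads of the fusion would fall on part of each partner gene only, an FPKM over the whole gene is not the level of the fusion.

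**Figure D4:**
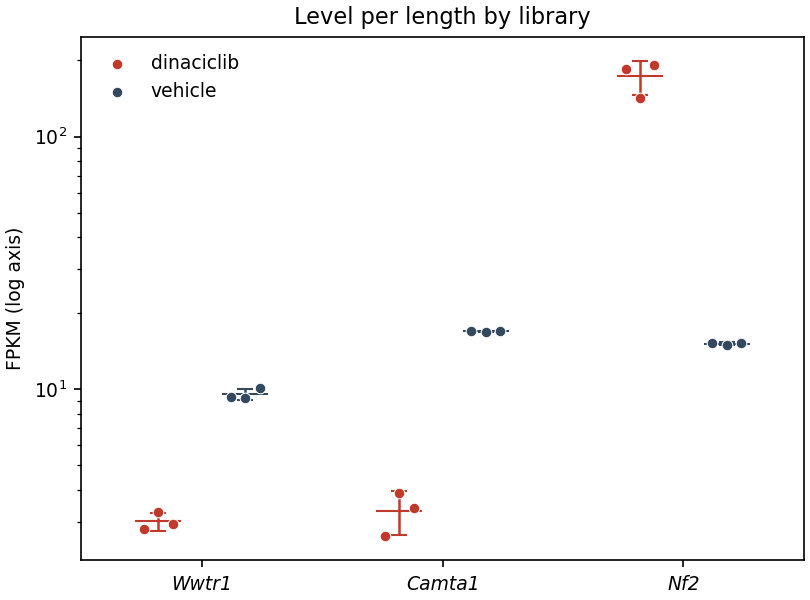
FPKM of Wwtr1, Camta1 and Nf2 in each library, on a log axis, with dinaciclib in red to the left of vehicle in dark blue and bars for the mean ± SD of 3 libraries. With dinaciclib, Nf2 is at 142 to 192 FPKM and Wwtr1 at 2.80 to 3.28 FPKM lies within the range of Camta1, 2.62 to 3.89 FPKM, against 9.28 to 17.1 FPKM for all 3 genes with vehicle.

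Other genes of the pathway were few in the table. Of 42 genes of the Hippo core, from the upstream kinases to the TEAD factors, 2 are listed, Wwtr1 and Nf2 themselves. Wwtr1 was called lower, beside 75% of the tested genes, and Nf2 higher, beside 25%. The call of Wwtr1 was lost with TMM or DESeq2's size factors over the listed genes. Yap1, the LATS and MST kinase genes and the TEAD genes are not in it and were not analysed here. Of 35 targets ascribed to YAP, TAZ and TEAD, 2 are listed and both were called higher, beside 25% of the tested genes. The G1 cyclin gene Ccnd1 stood at 45542 to 52424 normalised counts with dinaciclib, against 6794 to 8022 with vehicle, and Jun, a subunit gene of the AP-1 transcription factor, at 7691 to 9139 with dinaciclib, against 1442 to 1571 with vehicle. Both are controlled by many other inputs as well.

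Of 13 genes related or bound to merlin, 2 are listed, Nf2 itself and 1 other, and both were called higher, again beside 25% of the tested genes. The other was Msn, which encodes moesin, a membrane-to-actin linker of the ERM family with the same FERM domain as merlin. Msn stood at 143712 to 191269 normalised counts with dinaciclib, against 10853 to 11286 with vehicle, with a log2 change of 3.96 (SE 0.161). Its raw counts were 48579 to 58390 with dinaciclib, against 33410 to 43794 with vehicle, so that unlike those of Nf2 they did not overlap.

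Of 12 genes of the CAMTA and calmodulin list, Camta1 alone is listed. The CAMTA1 part of the human fusion is known to recruit the ATAC acetyltransferase complex, and no gene of that complex on the list examined is in the table. Of other acetyltransferase genes, Ep300, which encodes the p300 acetyltransferase, stood at 128 ± 71.4 with dinaciclib and 812 ± 8.51 with vehicle (normalised counts, SD, n = 3 each) and was called lower. Of 9 fusion partner genes of vascular tumours, 3 are listed and all 3 were called lower, beside 75% of the tested genes, though with TMM or DESeq2's size factors over the listed genes Camta1 alone kept its call; the one besides Wwtr1 and Camta1 is Cic, a transcriptional repressor gene, at 467 ± 176 with dinaciclib and 1190 ± 22.7 with vehicle, whose log2 change of −1.36 turned to 0.29 with TMM factors and 0.34 with DESeq2's size factors (adjusted p = 0.408 and 0.326, edgeR). Their median log2 change was −1.80, against −1.83 over the 248 tested genes. Of the 4 listed endothelial markers, all 4 were called lower, with a median log2 change of −2.60, beside which 75% of the tested genes were lower too.

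The genes most like each member were taken as those with the smallest Euclidean distance over the 6 libraries between profiles of log2(normalised count + 0.5), each set to its vehicle mean. For Wwtr1 the 4 nearest were Top1 (distance 0.178), Foxp1 (0.287), Zmym2 (0.292) and Fgfr1 (0.323), against a median distance of 2.74. Top1 encodes DNA topoisomerase I and stood at 380 ± 38.3 with dinaciclib and 1255 ± 24.3 with vehicle; Foxp1 encodes a forkhead transcription factor, Zmym2 a zinc finger protein of chromatin complexes and Fgfr1 a fibroblast growth factor receptor. For Camta1 they were Nbn (0.251), Pafah1b2 (0.324), Asxl1 (0.480) and Golga5 (0.530), against a median of 2.35. Only 2 of these 4 stayed among the nearest with a pseudocount of 5. Golga5 was low and variable with dinaciclib, at 63.5 ± 27.2 normalised counts (SD, n = 3). Nbn, which encodes a subunit of the MRN DNA-break complex, stood at 38.3 ± 7.57 with dinaciclib and 203 ± 11.0 with vehicle. Pafah1b2 encodes a subunit of a platelet-activating factor acetylhydrolase, Asxl1 a Polycomb-group partner and Golga5 a golgin of the Golgi apparatus.

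For Nf2 the nearest were Tpm4 (0.118), Foxo4 (0.245), Hey1 (0.262) and Chn1 (0.441), against a median of 9.21. Tpm4, a tropomyosin gene of the actin cytoskeleton, stood at 118516 ± 15702 with dinaciclib and 10998 ± 250 with vehicle, and its profile also had its lowest dinaciclib value in replicate 2. Foxo4 encodes a forkhead transcription factor controlled by AKT and Chn1 a chimaerin that inactivates Rac GTPases. Hey1, a Notch target gene, stood at 407 ± 39.6 with dinaciclib and 37.2 ± 3.26 with vehicle. Wwtr1 and Camta1 were not among each other's nearest genes. Their distance was 1.26, below the median distances of 2.74 from Wwtr1 and 2.35 from Camta1. In order of distance, Wwtr1 came at place 46 of 250 from Camta1, and Camta1 at place 71 from Wwtr1. As each profile is set to its vehicle mean, this distance mostly restates the difference between their log2 changes. Across the 248 tested genes the Spearman correlation of genomic span with log2 change was −0.03. It is given as a description, since the genes share libraries and were picked for the size of their change. It cannot show whether span and change go together over all genes.

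**Figure D5:**
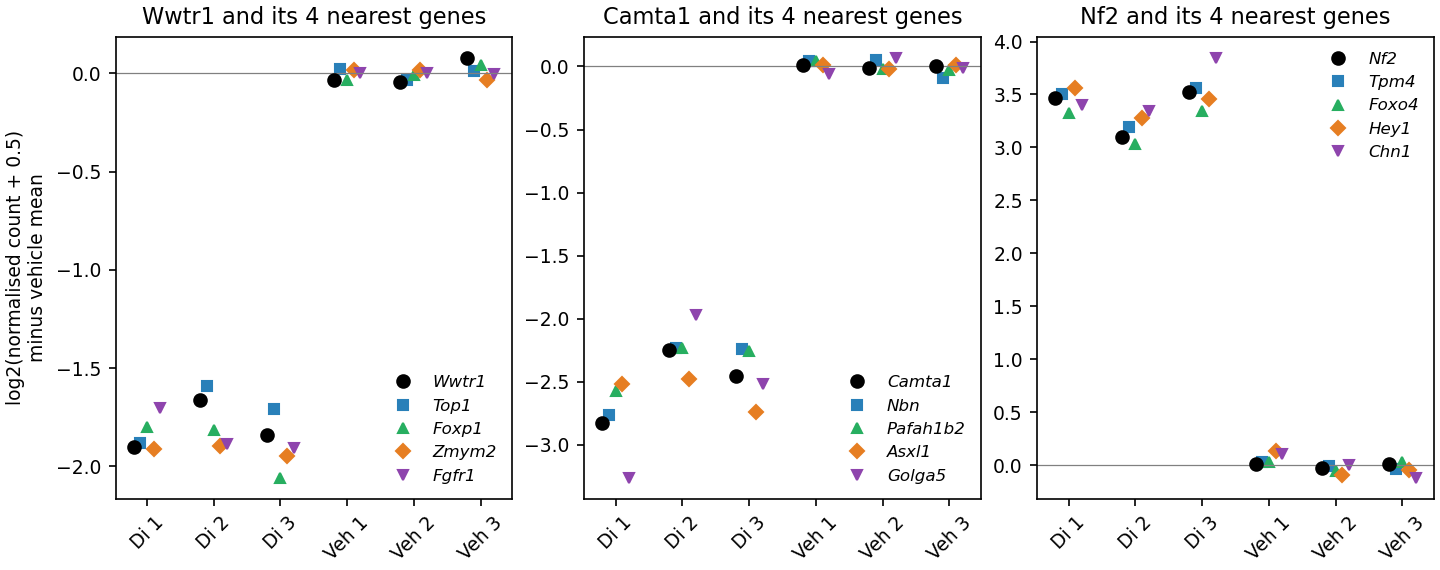
Profiles of Wwtr1, Camta1 and Nf2 (black circles) and of the 4 nearest genes of each (coloured markers) in the dinaciclib (Di) libraries and the vehicle (Veh) libraries, as log2(normalised count + 0.5) minus the vehicle mean of the gene. The nearest genes were picked for closeness over these 6 libraries, and each gene is set to its vehicle mean, so their closeness is no separate result. The highest dinaciclib value of Wwtr1 and of Camta1 and the lowest of Nf2 are all in replicate 2.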

How the data were processed

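Messenger RNA was captured on poly-T beads and copied with random primers, per the labels' protocols; no strand mark is described. The submitters' processing notes name the aligner HISAT2 2.0.5, the read trimmer fastp, the counter featureCounts 1.5.0-p3, and DESeq2 1.20.0. The build and gene models used are not given in any source at hand. Per the file headers, the authors deposited raw read counts per gene. The normalised signal deposited by the authors equals, on the values, each count over a single factor for its library. FPKM values were deposited too, and gave each library's total count. The deposited log2 fold changes and p-values are the authors' own comparison.

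Dinaciclib and vehicle libraries were fitted with edgeR 4.0.16 in R 4.3.3 (quasi-likelihood test, two-sided, filterByExpr with a minimum count of 10, adjusted p below 0.05), with no covariate, over the whole dinaciclib table; 248 of 251 genes passed the filter, the 3 members among them. Library sizes followed the authors' size factors. Members were compared within libraries as count ratios (pseudocount 0.5) by exact permutation tests (scipy 1.17.1). The edgeR fit was tested on simulated counts with known changes. The fit was given the library sizes used to draw them, so the choice of library scale was not tested. Named are the members, the 4 nearest genes of each, and up to 8 listed genes of each list; the members and lists were chosen with earlier results of these data known. Alternatives were 3 other library scales, DESeq2 1.42.0, limma 3.58.1 on log2(FPKM + 0.1), no filter, a replicate block, thinned vehicle counts, pseudocounts of 5 (and 0.1 on FPKM ratios), and leaving out each replicate. Promoter windows come from RefSeq (GRCm38.p6) and exons from GENCODE M21. The result of 1 further list member is not reported here. Of the listed genes, 194 matched a promoter window by symbol.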

Additional observations from a re-analysis of the deposited data

How the results depend on the processing

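The directions of Wwtr1, Camta1, Nf2 and the 3 ratios held under every alternative run. Library scale moved most: TMM factors over the listed genes shifted log2 changes by a median of 1.61, DESeq2's size factors over them by 1.66 and total counts by 0.13. Wwtr1 then stood at −0.19 with TMM and −0.14 with DESeq2's size factors, neither past the threshold, while Nf2 stood at 5.01 and 5.07. The genes called lower numbered 96 and 93, against 186, and all calls with DESeq2's size factors 163, against 248. Both sets of factors assume that few listed genes changed, and the table holds genes picked for change. The authors' size factors have a limit too. Their group means differed 11.1-fold, near the 12.2-fold of the totals, so they also give levels relative to the rest of the library. A change in the total RNA of a cell would not be seen on that scale. With total counts the log2 changes were −1.67 for Wwtr1, −2.35 for Camta1 and 3.51 for Nf2.

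Leaving out each replicate gave −1.88 to −1.75 for Wwtr1, −2.62 to −2.35 for Camta1 and 3.30 to 3.50 for Nf2; 240 to 249 genes were called. The Camta1 to Wwtr1 ratio differed by −0.78 to −0.61 on the log2 scale, that of Nf2 to Wwtr1 by 5.05 to 5.35 and that of Nf2 to Camta1 by 5.66 to 6.13. Deviations of same-numbered libraries had correlations of −0.03 to 0.06, and those of differently numbered libraries −0.13 to 0.09. As these ranges overlap, they cannot settle whether the numbers pair the samples. With the replicate block 240 genes were called, and the 3 members kept their calls. With a pseudocount of 5, 2 of the 4 genes nearest to Camta1 were shared; the cause was not tested. Depth limits Wwtr1 most, with 34 to 52 counts in a dinaciclib library.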

Other observations

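The authors' deposited table ties each gene to tumour types. Wwtr1 and Camta1 are the 2 listed genes with the entry epithelioid haemangioendothelioma, and both were lower with dinaciclib, as were 75% of the tested genes; Wwtr1 was not called with TMM factors (log2 change −0.19, adjusted p = 0.411, edgeR) or DESeq2's size factors (−0.14, adjusted p = 0.554, edgeR). Meningioma is entered for 4 genes, which were picked out after their values were seen and went both ways. Besides Nf2, Traf7, which encodes a ubiquitin ligase, was higher, at 3039 ± 232 normalised counts with dinaciclib and 1365 ± 15.4 with vehicle (SD, n = 3 each). Smarce1, which encodes a subunit of the SWI/SNF chromatin remodeller, was lower, at 220 ± 62.3 with dinaciclib and 937 ± 18.2 with vehicle, and so was Mn1, a transcriptional coregulator gene, at 72.8 ± 46.2 with dinaciclib and 319 ± 16.1 with vehicle. With TMM factors over the listed genes the log2 change of Mn1 was −0.52 and no longer passed (adjusted p = 0.203, edgeR's quasi-likelihood test), and with DESeq2's size factors neither did that of Smarce1, at −0.43 (adjusted p = 0.0606, edgeR).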
